A study of Mus musculus with 12 samples.

Results

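Resting B (RB) cells were stimulated with anti-CD86 antibody alone or with Pam2CSK4 alone, and the RNA of each was set against the other on 4 arrays. These were the 2 arrays labelled as stimulated with anti-CD86 only and the 2 labelled as stimulated with Pam2CSK4 only, out of 12 arrays in the series. Each signal had 1 array on each of 2 slides, so that the difference could be taken within a slide. The cells were isolated by CD43-negative selection from spleens of BALB/c mice, which the labels give as female and 6 weeks old, and all groups carried the same genotype. The labels give 4 h of stimulation. Both unstimulated arrays, from cells that received neither signal, lay on slide 1. They served as the reference for each signal. The remaining 6 arrays (both signals together, anti-CD40, and anti-CD40 with Pam2CSK4) entered the estimate of the spread. The study calls its array data representative of biological replicates, while the labels do not say whether the arrays of a group came from separate mice or cultures. If they did not, the p-values measure only the spread between these samples, which may be technical. An isotype control antibody was not analysed here.

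Pam2CSK4 is a synthetic diacylated lipopeptide that binds Toll like receptor (TLR)-2 together with TLR-6. The adaptors TIRAP and MyD88 and the IRAK kinases then lead to the release of NF-kB from its inhibitors, the IkB proteins, and to MAP kinase signalling, which switch on cytokine, survival and activation genes. CD86 is the costimulatory ligand that antigen-presenting cells show to CD28 and CTLA-4 on T cells, and on B cells an antibody that binds it can itself deliver a signal.

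Levels are log2 signals from which each array's own 75th percentile was subtracted, and pairs of values are given in the order slide 1, slide 2. Differences are anti-CD86 minus Pam2CSK4 on the log2 scale, so that a negative value means a higher signal with Pam2CSK4. Of the spots on the 4 arrays, 48.7% to 55.9% were well above background. With 2 arrays a signal, precision is set by how few they are. All 11 B cell markers on the array that were tested, Cd79a among them, were well above background on the 4 arrays. The summed linear signal of these markers was 321 to 349 with anti-CD86 and 331 to 376 with Pam2CSK4. In such RNA from a whole cell population, fewer cells of a type and less RNA per cell cannot be told apart.

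Anti-CD86 and Pam2CSK4 left RB cells with different transcripts. Of 31599 probes tested, 5961 (18.9%) differed at an adjusted p under 0.05 (limma), 3340 (10.6%) higher with anti-CD86 and 2621 (8.29%) higher with Pam2CSK4. Taken by the brightest probe, 2954 of 16751 genes (17.6%) differed, 1479 (8.83%) higher with anti-CD86 and 1475 (8.81%) higher with Pam2CSK4. The arrays of the signals did not overlap for 6313 genes (37.7%), the share to be kept in view where a gene below is said not to overlap. The numbers of genes in each direction were close, but the sizes were not. Of the genes called, 127 were more than 2-fold higher with Pam2CSK4 and 52 with anti-CD86, and over 4-fold the numbers were 22 and 5. These counts include genes not well above background with 1 of the signals, such as Ifnb1 and Prima1. Among genes that met the conditions for naming, which include signal well above background on all 4 arrays, 68 and 23 were over 2-fold. The count of probes rested on the slide term and on every array of both groups. Without the slide term 259 probes were called, and with median normalization 641. Leaving out 1 array gave 3447 without the slide 1 array of anti-CD86, 1980 without its slide 2 array, 1258 without the slide 1 array of Pam2CSK4 and 1109 without its slide 2 array. Fitted on the 4 arrays alone limma called 0 probes, with 8564 at an unadjusted p under 0.05. Of the 179 genes called over 2-fold, 73 stayed called without the slide term and 166 with median normalization. That 0 had the other sign under either shows nothing further, since these settings could not turn it. Dropping the slide term leaves each difference as it is, and median normalization shifts all of them by the same small amount.

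The differences on the slides went the same way for 23874 of the 31599 probes tested (r = 0.511 across probes, which are not independent replicates). A common sign among called genes is favoured by the call and shows nothing further. Among the genes named by size, a common sign and arrays that do not overlap are part of the rule. They show nothing further there.

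**Figure D1:**
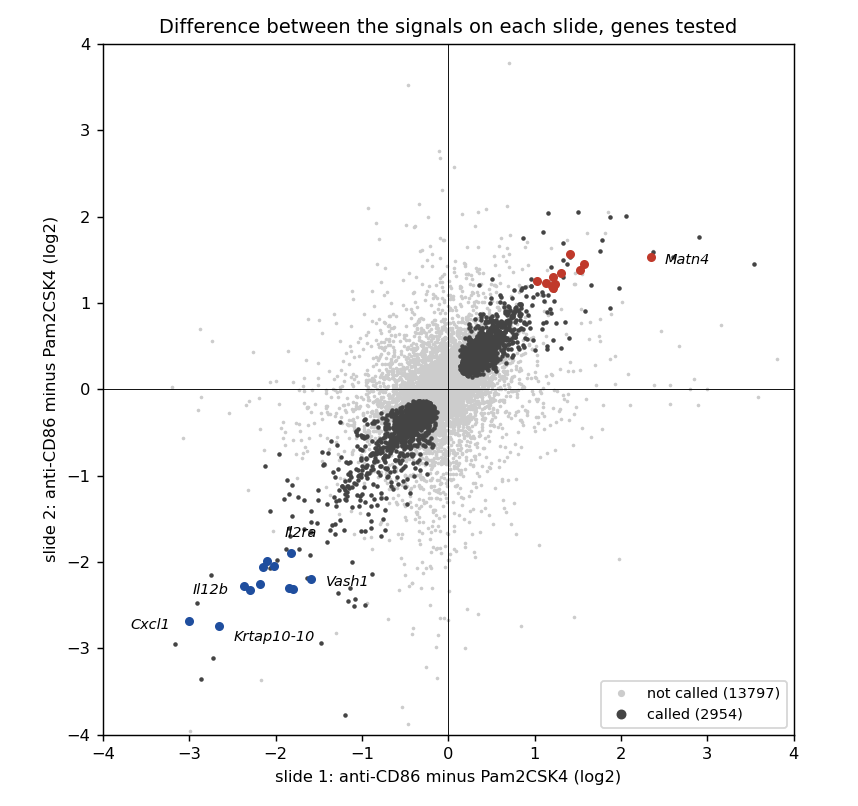
Difference between the signals (anti-CD86 minus Pam2CSK4, log2) on slide 1 (horizontal) and on slide 2 (vertical), with 1 point per gene tested. The 2954 called genes (dark) lie in the quadrants of equal sign, which the selection by call favours, 23 of the 24 genes most raised with either signal under the naming rule are in red (anti-CD86) and blue (Pam2CSK4), and 19 genes fall outside the plotted range.

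Against unstimulated cells, anti-CD86 alone changed 5134 genes (30.6%), of which 1734 (10.4%) were higher and 3400 (20.3%) lower. Pam2CSK4 alone changed 1984 genes (11.8%), with 684 (4.08%) higher and 1300 (7.76%) lower. Both comparisons share the unstimulated arrays. As these lay on slide 1, the slide 2 arrays are set against them through the slide term of the fit. Over probes, 8944 (28.3%) were called for anti-CD86, 12.9% of those tested higher and 15.4% lower, and 3417 (10.8%) for Pam2CSK4, 4.66% higher and 6.15% lower. The balance of directions depended on the scaling. Of the probes called for anti-CD86 45.5% were higher, but 72.9% with median normalization (661 probes), and for Pam2CSK4 43.1% were higher, but 70.1% with median normalization (318 probes). Without the slide term 675 and 43 probes were called, and without 1 unstimulated array 4164 to 4529 for anti-CD86 and 336 to 345 for Pam2CSK4. Leaving out the slide 1 array of anti-CD86 gave 3987 for that signal. For Pam2CSK4 the count was 147 without its slide 1 array and 431 without its slide 2 array.

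The 12 genes with the most negative difference ran from -2.85 to -1.86. Cxcl1, a chemokine that draws neutrophils, had a log2 signal of -3.27 and -2.98 with anti-CD86, -0.26 and -0.29 with Pam2CSK4, and -2.55 and -2.34 on the unstimulated arrays. The arrays of the 2 signals did not overlap, which the naming rule requires, and the unstimulated ones lay between them. Its difference was -2.85 (SE 0.21, adjusted p = 0.00129), or 7.20-fold. Il12b, the p40 chain of interleukin (IL)-12 and IL-23, was at -0.47 and -0.64 with anti-CD86, 1.82 and 1.69 with Pam2CSK4, and -0.02 and -0.03 unstimulated. That gave -2.31 (SE 0.07, adjusted p = 0.000334), with anti-CD86 below and Pam2CSK4 above unstimulated cells. Ptgs2, the inducible cyclooxygenase, had -3.84 and -3.69 with anti-CD86 and -1.48 and -1.41 with Pam2CSK4, a difference of -2.32 (SE 0.23, adjusted p = 0.00286). Saa3, an acute phase serum amyloid, went from -3.31 and -3.42 to -1.16 and -1.37, and Cx3cl1, the chemokine fractalkine, from -1.89 and -2.20 to 0.13 and -0.16. For both genes the unstimulated arrays lay near the anti-CD86 arrays, at -3.81 and -3.33 for Saa3 and -1.70 and -1.52 for Cx3cl1.

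The survival gene Bcl2l1, which encodes Bcl-xL, had a log2 signal of -0.27 and -0.22 with anti-CD86, 1.82 and 1.78 with Pam2CSK4, and -0.35 and -0.48 unstimulated. Pam2CSK4 arrays stood alone, and the difference was -2.04 (SE 0.10, adjusted p = 0.000527), or 4.13-fold. For Il2ra, which encodes the IL-2 receptor chain CD25, the Pam2CSK4 arrays also stood alone. It had -1.97 and -1.86 with anti-CD86, -0.15 and 0.03 with Pam2CSK4, and -1.85 and -1.82 unstimulated. Its difference was -1.86 (SE 0.10, adjusted p = 0.000566). Vash1, a secreted inhibitor of vessel growth, was at -1.52 and -1.18 with anti-CD86, 0.07 and 1.02 with Pam2CSK4 and -0.20 and -0.32 unstimulated, so that the anti-CD86 arrays were the low ones. Against unstimulated cells Vash1 fell by 1.42 on the log2 scale with anti-CD86 (adjusted p = 0.00242). The same held for Tm4sf4, a tetraspanin-like membrane protein, which was -1.87 with anti-CD86 against unstimulated cells (adjusted p = 0.00214) and -2.22 against Pam2CSK4. Krtap10-10, a keratin-associated protein, Iqcd and the small GTPase Arl4d also belonged to the 12 genes, with differences of -2.70, -2.07 and -2.06. Their slides lay far apart, for example 3.44 and 5.53 with Pam2CSK4 and 0.78 and 2.79 with anti-CD86 for Krtap10-10, and each of the 3 lost its call when either array of Pam2CSK4 was left out (adjusted p = 0.0224 for Krtap10-10 with all arrays). Another probe of Arl4d read only -0.36 (adjusted p = 0.00675).

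On the other side were the 12 genes with the most positive difference, of which 11 are described. U2af1, the small subunit of the splicing factor that reads the 3' splice site, was at 5.09 and 4.73 with anti-CD86, 3.78 and 3.39 with Pam2CSK4, and 4.82 and 4.79 unstimulated. Its difference was 1.33 (SE 0.07, adjusted p = 0.000566). Against unstimulated cells it was 0.31 higher with anti-CD86 (adjusted p = 0.0244) and fell by 1.01 on the log2 scale with Pam2CSK4 (adjusted p = 0.00299). The 0.31 rests on the slide term, as the slide 2 array of anti-CD86, at 4.73, read below both unstimulated arrays. Prmt1, the main enzyme that dimethylates arginines asymmetrically, was at 3.88 and 3.61 against 2.65 and 2.39, with 3.53 and 3.41 unstimulated. Its difference was 1.23 (SE 0.06, adjusted p = 0.000527). Fancm, a helicase of DNA crosslink repair, stood at 0.76 and 0.59 with anti-CD86 and at -0.44 and -0.61 with Pam2CSK4, near the -0.51 and -0.49 of unstimulated cells. It was 1.29 higher with anti-CD86 than in unstimulated cells (adjusted p = 0.00163) and 0.09 higher with Pam2CSK4 (adjusted p = 0.536). Its difference between the signals was 1.20 (SE 0.08, adjusted p = 0.000936), against 0.22 on its other probe (adjusted p = 0.0310).

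Matn4, an extracellular matrix protein of the matrilins, had the most positive difference of the genes the rule named, 1.94 (SE 0.22, adjusted p = 0.00444). Its arrays read -0.51 and -0.86 with anti-CD86, -2.85 and -2.40 with Pam2CSK4, and -1.87 and -2.01 unstimulated. Sh3bp2, an adaptor of immune receptor signalling, followed with -1.04 and -1.20 against -2.61 and -2.65, a difference of 1.51 (SE 0.15, adjusted p = 0.00316). Dock8, a guanine nucleotide exchange factor needed for lymphocyte migration and long-lived antibody responses, was at 1.87 and 1.57 with anti-CD86, 0.46 and 0.00 with Pam2CSK4, and 1.72 and 1.77 unstimulated. Here the Pam2CSK4 arrays were the low ones, by -1.30 against unstimulated cells (adjusted p = 0.00190). The other probes of Dock8 differed between the signals by only 0.20 and 0.03 (adjusted p = 0.185 and 0.924). Others of the 12 genes were Lrrc68, the Wnt coactivator Bcl9l, Thbd, the secreted factor Metrn and Eepd1, with differences of 1.45, 1.26, 1.19, 1.18 and 1.15. Thbd, which encodes thrombomodulin, lost its call when any array of the 3 groups was left out (adjusted p = 0.0318 with all arrays).

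**Figure D2:**
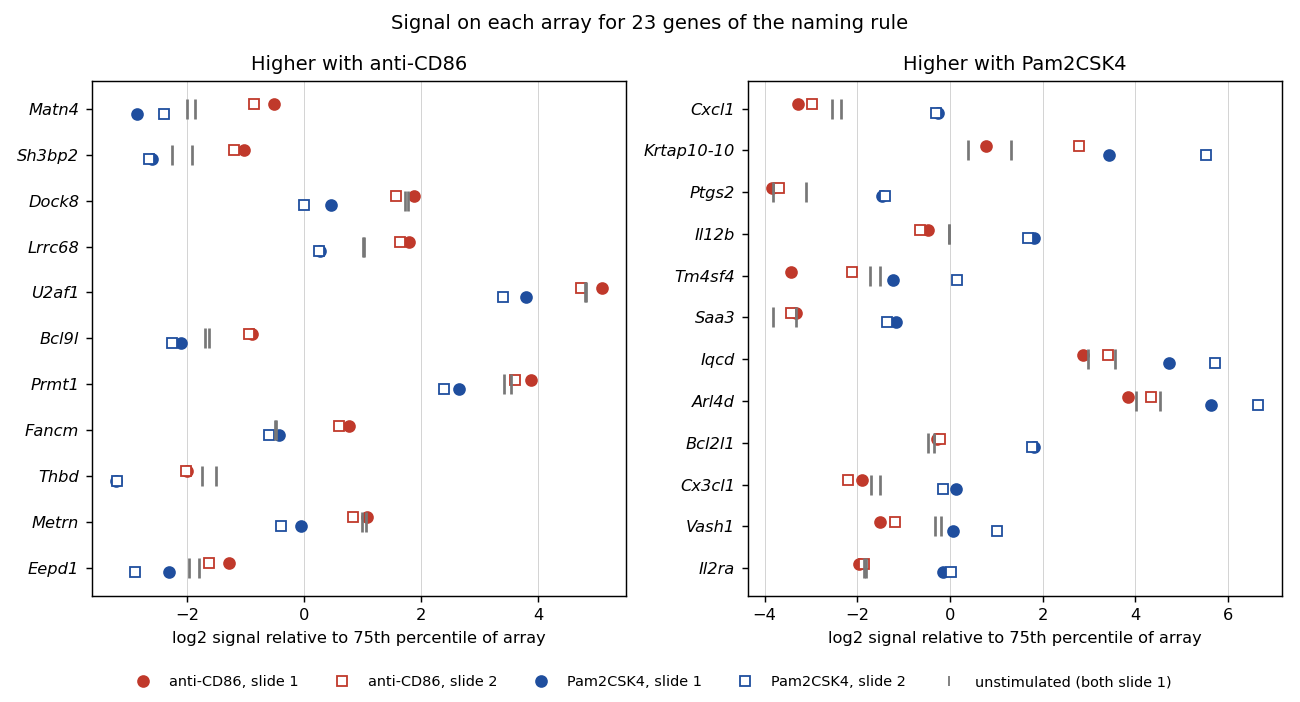
Log2 signal on each array, less that array's 75th percentile (horizontal), for 11 of the 12 genes most raised with anti-CD86 (left) and the 12 most raised with Pam2CSK4 (right) under the naming rule; filled circles are slide 1, open squares slide 2 and grey ticks the unstimulated arrays. Red and blue points do not overlap for any of the 23 genes because the rule requires it, and the grey ticks of Cxcl1 and Prmt1 lie between them.

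Of the 12 genes highest with Pam2CSK4, 9 were above unstimulated cells with Pam2CSK4 and 4 below them with anti-CD86 (adjusted p under 0.05). Of the 12 highest with anti-CD86, 8 were above unstimulated cells with anti-CD86 and 8 below them with Pam2CSK4. Over all genes tested, 4.08% were above and 7.76% below unstimulated cells with Pam2CSK4. With anti-CD86 the shares were 10.4% above and 20.3% below. The genes were picked by the difference between the signals on these same arrays, which favours such counts. The arrays of cells given both signals lay nearer to Pam2CSK4 for 11 of the first 12 genes and nearer to anti-CD86 for 7 of the other 12. Over all genes that met the conditions of the rule and differed over 2-fold, the counts were 59 of 68 nearer to Pam2CSK4 and 12 of 23 nearer to anti-CD86. These counts are a description and were not tested.

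Cytokine and chemokine genes separated the signals more than any other of the 24 lists by their median, at -0.68 against -0.03 over all genes tested. Of 23 members tested 15 were higher with Pam2CSK4 and 3 with anti-CD86. The background of genes called higher with Pam2CSK4 was 8.81%. Il6 had a log2 signal of -0.97 and -0.90 with anti-CD86, 0.84 and 0.57 with Pam2CSK4, and -0.11 and 0.01 unstimulated. It was below unstimulated cells by -0.80 with anti-CD86 (adjusted p = 0.00713) and above them by 0.84 with Pam2CSK4 (adjusted p = 0.0167). Il1b, an inflammasome-processed cytokine, was at 3.58 and 3.72 with anti-CD86, 5.09 and 4.99 with Pam2CSK4, and 4.28 and 4.30 unstimulated, and Ccl3, an inflammatory chemokine, at 3.36 and 3.41, 4.39 and 4.40, and 3.90 and 3.92. Both genes moved in opposite directions from unstimulated cells, as the plot of each signal against unstimulated cells shows. Tnf had 0.94 and 0.66 with anti-CD86, 2.09 and 1.80 with Pam2CSK4, and 0.75 and 0.70 unstimulated. In contrast to Il6, it was above unstimulated cells with both signals in the fit, by 0.25 with anti-CD86 (adjusted p = 0.0370) and 1.40 with Pam2CSK4 (adjusted p = 0.00136). The 0.25 rests on the slide term, as the slide 2 array of anti-CD86, at 0.66, read below both unstimulated arrays. Il10, an anti-inflammatory cytokine that B cells can secrete, differed by -0.83 (SE 0.06, adjusted p = 0.00108), Il4, the switch cytokine for IgE and IgG1, by -0.68 (SE 0.11, adjusted p = 0.0120) and Cxcl10, an interferon-inducible chemokine, by -1.16 (SE 0.15, adjusted p = 0.00648). Ccl2 and Csf2 were among the 15 members, but neither was well above background on an anti-CD86 array and each was on 1 array of Pam2CSK4, so no fold is given. Without either array of Pam2CSK4, 9 members were called higher with that signal, and without the slide term 7 were.

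Clcf1 ran against the rest of the list. This IL-6 family cytokine, which supports B cell growth, had 0.07 and -0.11 with anti-CD86, -0.52 and -0.79 with Pam2CSK4, and -1.35 and -1.23 unstimulated. Both signals raised it, anti-CD86 by 1.40 (adjusted p = 0.00173) and Pam2CSK4 by 0.77 (adjusted p = 0.0104), and the difference between them was 0.63 (SE 0.09, adjusted p = 0.00761). Il12a, the p35 chain of IL-12, was higher with anti-CD86 by 0.29 (SE 0.06, adjusted p = 0.0181). The chains of IL-12 thus differed in opposite directions in this fit, but Il12a lost its call without the slide term and with median normalization. The remaining member higher with anti-CD86, Ltb, was saturated.

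Markers of other blood cells were read beside these lists. Of 13 markers of monocytes, macrophages and dendritic cells, 5 were higher with Pam2CSK4 (Cd14, Cd68, Clec7a, Mpeg1 and Clec9a) and 2 with anti-CD86 (Itgam and Siglech). Other probes of Mpeg1 and Itgam did not pass the test (-0.05 and 0.04, adjusted p = 0.709 and 0.827). The summed linear signal of the 13 markers was 83.2 to 96.8 with anti-CD86, 99.8 to 121 with Pam2CSK4 and 120 to 122 unstimulated. All 5 red cell markers tested were higher with Pam2CSK4, with summed signals of 61.6 to 77.1, 76.7 to 96.6 and 89.6 to 89.9. For T cells 1 of 12 markers was called, for NK cells 3 of 9, for neutrophils 0 of 7 and for platelets 0 of 4. Over all genes tested 17.6% were called. The neutrophil markers summed to 525 to 572 with anti-CD86, 550 to 627 with Pam2CSK4 and 688 to 718 unstimulated. Of the 7, 4 were called below unstimulated cells with anti-CD86 and 3 with Pam2CSK4 (20.3% and 7.76% of all genes). The part of these other cells in the cytokine and chemokine differences, and in the differences from unstimulated cells, was not tested.

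The letters of an NF-kB site were looked for in the promoters of genes that moved together, as GGGA, any 2 bases and TTCC on either strand, within the 250 bases before the start of the gene (RefSeq, GRCm38.p6). A promoter was in the table for 86 of the 127 genes called over 2-fold higher with Pam2CSK4. Of these, 5 held the letters (5.81%), which were 4 genes of chemokines or IL-6 and the interferon gene Ifnb1. Of the 35 genes with a promoter in the table that were over 2-fold higher with anti-CD86, 0 held them. Among all 32851 promoters 1.21% held them, as did 1.45% of the 10141 genes tested that had a promoter. The 5 include Ifnb1, which was not well above background with anti-CD86, and Cxcl1 and Cxcl2, which share their letters. The shares were not tested. A match is a description of the letters and not a bound site. The 5 promoters are shown because their genes were all higher with Pam2CSK4, and capitals mark the matched letters, which in Cxcl1 and Cxcl2 are overlapping matches on both strands.
Cxcl1, chr5:90890995-90891244, plus strand: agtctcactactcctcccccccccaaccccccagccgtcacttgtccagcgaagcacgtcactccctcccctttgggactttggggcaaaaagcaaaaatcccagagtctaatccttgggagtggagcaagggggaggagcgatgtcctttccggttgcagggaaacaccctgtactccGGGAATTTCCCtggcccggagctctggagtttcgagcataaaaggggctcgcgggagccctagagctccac
Cxcl2, chr5:90903649-90903898, plus strand: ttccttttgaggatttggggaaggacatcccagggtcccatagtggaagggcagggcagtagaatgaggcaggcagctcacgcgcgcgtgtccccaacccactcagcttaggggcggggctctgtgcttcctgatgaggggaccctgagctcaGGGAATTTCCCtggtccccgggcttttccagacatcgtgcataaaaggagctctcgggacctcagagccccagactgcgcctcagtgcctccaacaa
Cxcl10, chr5:92348890-92349139, minus strand: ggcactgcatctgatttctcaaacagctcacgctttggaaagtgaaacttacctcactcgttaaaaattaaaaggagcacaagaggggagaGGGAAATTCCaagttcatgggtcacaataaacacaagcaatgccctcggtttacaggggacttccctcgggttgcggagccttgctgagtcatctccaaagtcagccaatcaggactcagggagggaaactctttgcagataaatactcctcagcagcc
Il6, chr5:30012864-30013113, plus strand: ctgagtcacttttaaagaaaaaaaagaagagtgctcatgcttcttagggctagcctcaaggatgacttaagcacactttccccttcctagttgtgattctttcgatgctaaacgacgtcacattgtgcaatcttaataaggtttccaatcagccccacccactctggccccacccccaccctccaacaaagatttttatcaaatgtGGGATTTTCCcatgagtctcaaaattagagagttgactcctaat
Ifnb1, chr4:88522795-88523044, minus strand: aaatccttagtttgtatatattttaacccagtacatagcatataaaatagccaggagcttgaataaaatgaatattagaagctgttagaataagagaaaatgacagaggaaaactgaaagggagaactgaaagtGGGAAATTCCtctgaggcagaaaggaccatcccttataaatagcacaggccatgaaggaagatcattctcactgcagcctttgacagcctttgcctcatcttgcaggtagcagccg
Cxcl1 and Cxcl2 share the letters GGGAATTTCCC, which begin 71 and 97 bases before the start. Cxcl10 and Ifnb1 share GGGAAATTCC, 159 and 116 bases before it, and Il6 holds GGGATTTTCC 44 bases before it. Cxcl2 had a log2 signal of -1.44 and -1.49 with anti-CD86 and -0.25 and -0.33 with Pam2CSK4, a difference of -1.18 (SE 0.17, adjusted p = 0.00830). Ifnb1 was not well above background on either anti-CD86 array and was on both of Pam2CSK4, which makes it at least 2.30-fold higher with Pam2CSK4 (adjusted p = 0.00137). That p-value uses the same arrays, with anti-CD86 readings not above background, and is no separate support. The bound sets the mean of the bright group against the lowest signal well above background on each dim array.

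NF-kB feedback and target genes also lay mostly on the side of Pam2CSK4. Of 20 tested 14 were higher with Pam2CSK4 and 0 with anti-CD86 (70% called, against 17.6% of all genes), and their median difference was -0.43. Gadd45b, a stress-induced regulator of MAP kinase signalling, had 5.13 and 4.79 with anti-CD86, 6.44 and 6.46 with Pam2CSK4, and 5.49 and 5.54 unstimulated, a difference of -1.49 (SE 0.17, adjusted p = 0.00427). Ebi3, the chain that IL-27 and IL-35 share, was at 2.51 and 2.30, 3.68 and 3.49, and 2.89 and 2.92, a difference of -1.18 (SE 0.06, adjusted p = 0.000527). For both genes the unstimulated arrays lay between the signals. Icam1, the adhesion ligand of LFA-1, took another course, with 1.03 and 1.00 for anti-CD86, 1.78 and 1.78 for Pam2CSK4, and 0.31 and 0.27 unstimulated. It rose with both signals, by 0.78 with anti-CD86 (adjusted p = 0.00214) and by 1.54 with Pam2CSK4 (adjusted p = 0.00120). Traf1, a signalling adaptor of TNF receptors, differed by -0.76 (SE 0.06, adjusted p = 0.00141) and Tnfaip3, the deubiquitinase A20 that shuts NF-kB off, by -0.46 (SE 0.05, adjusted p = 0.00360). Without the slide term 3 members were called, with median normalization 2, and without 1 array of Pam2CSK4 7 to 8.

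Among the NF-kB subunits and IkB proteins 6 of 11 were higher with Pam2CSK4 and 0 with anti-CD86, with a median of -0.20. That is 54.5% called, against 17.6% of all genes tested. Nfkbiz, the nuclear IkB protein IkB-zeta that is needed for a second wave of TLR target genes, had 3.16 and 3.11 with anti-CD86, 4.99 and 4.81 with Pam2CSK4, and 3.11 and 3.06 unstimulated. The Pam2CSK4 arrays stood alone, at a difference of -1.77 (SE 0.07, adjusted p = 0.000499), and anti-CD86 was 0.15 from unstimulated cells (adjusted p = 0.196). Nfkbid, another nuclear IkB protein, rose with both signals, from 2.45 and 2.50 unstimulated to 2.94 and 2.59 with anti-CD86 and 3.56 and 3.18 with Pam2CSK4. The difference between the signals was -0.60 (SE 0.06, adjusted p = 0.00386). Rel, Nfkbie, Nfkbib and Rela differed by -0.54, -0.42, -0.39 and -0.20 (adjusted p = 0.00901, 0.00403, 0.00988 and 0.0451). Another probe of Rela read 0.097 (adjusted p = 0.522) and another of Rel -1.54 (adjusted p = 0.173). Nfkb1, Nfkb2, Relb and Bcl3 did not pass the test, at -0.09, -0.17, -0.14 and 0.02. Nfkbia was saturated. Without the slide term 1 member was called higher with Pam2CSK4, with median normalization also 1, and without either array of Pam2CSK4 3 were.

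The receptors and adaptors of the TLR-2 pathway were divided. Cd14, a coreceptor, had 2.57 and 2.28 with anti-CD86, 3.51 and 3.25 with Pam2CSK4, and 3.01 and 3.01 unstimulated, a difference of -0.96 (SE 0.07, adjusted p = 0.00141). Tlr2 itself was at 2.10 and 1.83, 2.88 and 2.71, and 2.52 and 2.60, a difference of -0.83 (SE 0.06, adjusted p = 0.00137). Both receptor genes were below unstimulated cells with anti-CD86 and above them with Pam2CSK4, and Cd14 is also a marker of the monocyte list above. Tlr1 differed by -0.42 (adjusted p = 0.00955) but rose with both signals, by 0.38 and 0.80. Of the adaptors, Tirap was higher with anti-CD86 by 0.59 (SE 0.11, adjusted p = 0.0153) and the kinase Map3k7 (TAK1) by 0.43 (SE 0.11, adjusted p = 0.0359). Myd88 differed by 0.20 (SE 0.07, adjusted p = 0.0850). In all 2 of 17 members were higher with anti-CD86 and 4 with Pam2CSK4 (35.3% called, against 17.6% of all genes), with a median of 0.09. Against unstimulated cells 9 were higher with anti-CD86 and 3 with Pam2CSK4 (10.4% and 4.08% of all genes).

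**Figure D3:**
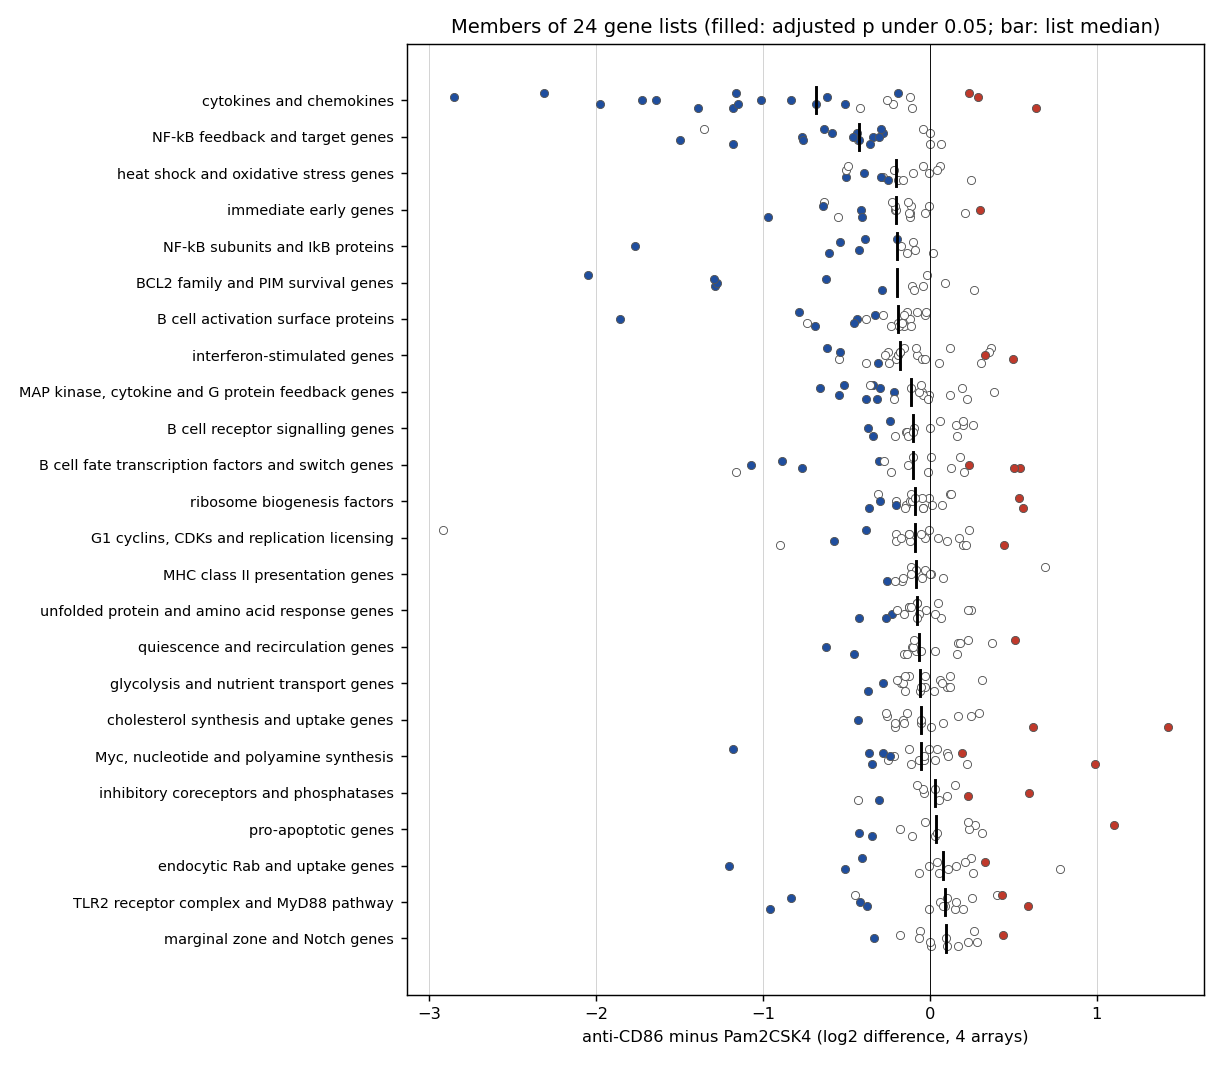
Log2 difference, anti-CD86 minus Pam2CSK4 (horizontal), of each tested member of 24 gene lists (vertical, ordered by median); filled points have an adjusted p under 0.05, red higher with anti-CD86 and blue higher with Pam2CSK4, and black bars are list medians. Cytokines and chemokines (-0.68) and NF-kB feedback and target genes (-0.43) have the lowest medians, and all members tested are drawn, saturated and dim ones included.

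Survival genes of the BCL2 family and the PIM kinases followed the Pam2CSK4 side in 6 of 12 members, with 0 on the side of anti-CD86. That is 50% called, against 17.6% of all genes tested. Beside Bcl2l1, the A1 genes that encode the BCL2 relative BFL-1 moved. Bcl2a1a had 5.62 and 5.65 with anti-CD86, 6.95 and 6.90 with Pam2CSK4, and 5.99 and 6.02 unstimulated, a difference of -1.29 (SE 0.08, adjusted p = 0.000769). Bcl2a1b and Bcl2a1c differed by -1.28 and -1.29, but the A1 genes are near-identical copies and their probes may read each other's transcripts. Another probe of Bcl2a1b read only -0.55 (adjusted p = 0.00423). Pim1, a survival kinase, was at 3.57 and 3.34 with anti-CD86, 4.23 and 3.92 with Pam2CSK4, and 2.77 and 2.89 unstimulated, a difference of -0.62 (SE 0.07, adjusted p = 0.00473). Pim2 was raised to a like level by both signals, at 3.89 and 3.62 with anti-CD86, 3.93 and 3.61 with Pam2CSK4, and 3.15 and 3.12 unstimulated. Its rise over unstimulated cells was 0.78 (adjusted p = 0.00180) and 0.80 (adjusted p = 0.00299), and the difference between the signals was -0.02 (SE 0.06, adjusted p = 0.859). Pim3 was also above unstimulated cells with both, by 0.68 and 0.77 (adjusted p = 0.00443 and 0.00994). Bcl2 differed by -0.29 (SE 0.06, adjusted p = 0.0217).

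Among pro-apoptotic genes, Ddit4 (REDD1), an inhibitor of mTORC1 that stress and nutrient shortage induce, had 5.12 and 4.92 with anti-CD86, 4.04 and 3.79 with Pam2CSK4, and 4.74 and 4.74 unstimulated. It rose by 0.42 with anti-CD86 (adjusted p = 0.00452), fell by 0.68 on the log2 scale with Pam2CSK4 (adjusted p = 0.00441), and differed by 1.11 (SE 0.06, adjusted p = 0.000527). Pmaip1, which encodes the BH3-only protein NOXA, was below unstimulated cells with both signals, by -0.75 with anti-CD86 (adjusted p = 0.00217) and -0.32 with Pam2CSK4 (adjusted p = 0.0402), a difference of -0.42 (SE 0.07, adjusted p = 0.0107). P2rx7, the ATP-gated channel, differed by -0.34 (SE 0.07, adjusted p = 0.0200) but by 0.35 on another probe (adjusted p = 0.389), and Apaf1, the scaffold of the apoptosome, by 0.03 (SE 0.07, adjusted p = 0.802). The list held 1 member higher with anti-CD86 and 2 with Pam2CSK4 of 12 tested (25% called, against 17.6% of all genes).

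**Figure D4:**
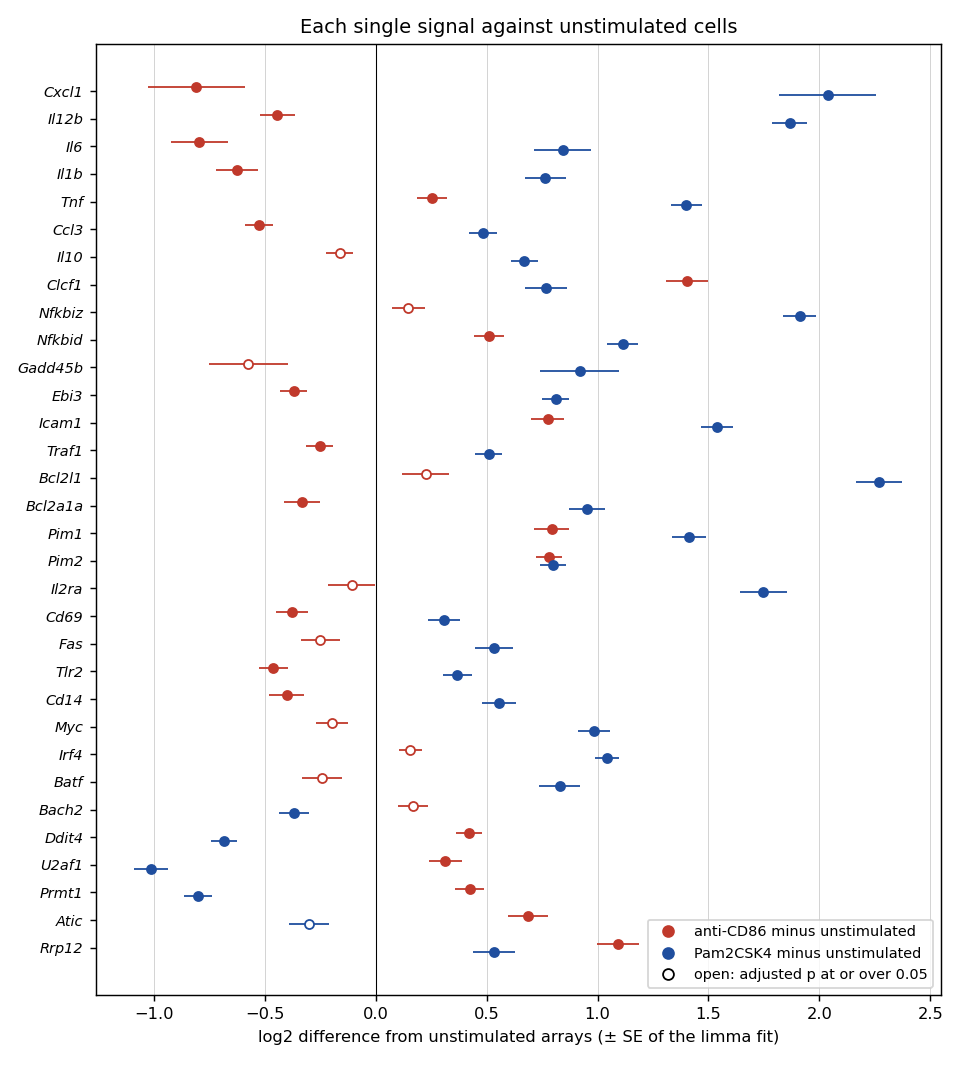
Log2 difference of anti-CD86 (red) and of Pam2CSK4 (blue) from the same unstimulated arrays (horizontal, with the SE of the limma fit) for genes named in the text, filled where the adjusted p is under 0.05. Il6, Il1b, Ccl3, Tlr2 and Cd14 lie on opposite sides of 0, Icam1, Pim2 and Clcf1 lie above 0 with both signals, and Prmt1 and Ddit4 lie above 0 with anti-CD86 and below it with Pam2CSK4.

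Of 21 activation surface proteins 6 were higher with Pam2CSK4 and 0 with anti-CD86 (28.6% called, against 17.6% of all genes). Beside Il2ra, Fas, the death receptor, differed by -0.78 (SE 0.08, adjusted p = 0.00351), Cd69, an early activation antigen, by -0.69 (SE 0.07, adjusted p = 0.00291) and Cd40, the costimulatory receptor, by -0.44 (SE 0.07, adjusted p = 0.00911), though both other probes of Cd40 read -0.02 (adjusted p = 0.950 and 0.943). Cd69 had 3.74 and 3.43 with anti-CD86, 4.43 and 4.12 with Pam2CSK4, and 4.16 and 4.17 unstimulated. It was thus below unstimulated cells with anti-CD86, by -0.38 (adjusted p = 0.0109). Slamf1, a signalling receptor between lymphocytes, differed by -0.46 (adjusted p = 0.0273) and Il4ra by -0.33 (adjusted p = 0.0145). The array transcript level of Cd86 itself was at 1.51 and 1.38 with anti-CD86, 1.55 and 1.39 with Pam2CSK4, and 1.41 and 1.44 unstimulated, a difference of -0.03 (SE 0.07, adjusted p = 0.806). Fcer2a, which encodes CD23, rose with both signals, by 0.27 (adjusted p = 0.0147) and 0.45 (adjusted p = 0.0102), and differed between them by -0.18 (SE 0.05, adjusted p = 0.0567). Cr2, which encodes CD21/35, Icosl and Cd5 differed by -0.06, -0.16 and -0.13 (adjusted p = 0.474, 0.193 and 0.107).

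The transcription factors of B cell fate split in both directions, with 4 of 17 higher with Pam2CSK4 and 3 with anti-CD86. That is 41.2% called, against 17.6% of all genes tested. Irf4, which drives class switch and plasma cell differentiation, had 3.05 and 3.17 with anti-CD86, 3.93 and 4.06 with Pam2CSK4, and 2.90 and 2.89 unstimulated, a difference of -0.89 (SE 0.05, adjusted p = 0.000644). Its partner Batf was at 2.57 and 2.47, 3.70 and 3.49, and 2.84 and 2.86, a difference of -1.07 (SE 0.09, adjusted p = 0.00161). For both factors anti-CD86 did not pass the test against unstimulated cells (adjusted p = 0.0730 and 0.0951). Id2, an inhibitor of E proteins, differed by -0.77 (SE 0.06, adjusted p = 0.00191). Bach2, a repressor of plasma cell differentiation, was higher with anti-CD86, at 5.13 and 4.88 against 4.59 and 4.33, with 4.99 and 4.99 unstimulated. Its difference was 0.54 (SE 0.06, adjusted p = 0.00478), and it fell by 0.37 on the log2 scale with Pam2CSK4 (adjusted p = 0.0251). Xbp1, the transcription factor of the secretory programme, was also higher with anti-CD86, by 0.50 (SE 0.05, adjusted p = 0.00383).

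Growth genes showed no common direction. Myc had 4.72 and 4.56 with anti-CD86, 5.96 and 5.68 with Pam2CSK4, and 4.95 and 5.03 unstimulated, a difference of -1.18 (SE 0.07, adjusted p = 0.000657). Atic, a bifunctional enzyme of purine synthesis, went the other way, with 0.50 and 0.33, -0.40 and -0.75, and -0.14 and -0.20, a difference of 0.99 (SE 0.09, adjusted p = 0.00214). In the list of Myc, nucleotide and polyamine genes 5 of 20 were higher with Pam2CSK4 and 2 with anti-CD86. That is 35% called, against 17.6% of all genes tested. Of 21 ribosome biogenesis factors 3 were higher with Pam2CSK4 and 2 with anti-CD86 (23.8% called, near the share of all genes). Rrp12 among them was 0.56 higher with anti-CD86 (SE 0.09, adjusted p = 0.0107) and rose with both signals. The G1 cyclin Ccnd2 was higher with Pam2CSK4 (-0.57, SE 0.06, adjusted p = 0.00399) and the cell cycle inhibitor Cdkn1b with anti-CD86 (0.44, SE 0.08, adjusted p = 0.0163; 0.43 on another probe, adjusted p = 0.602). Among immediate early genes, 4 of 19 were higher with Pam2CSK4 and 1 with anti-CD86 (26.3% called), led by Maff, a small MAF factor, at -0.97 (SE 0.06, adjusted p = 0.000779). Of 21 feedback genes of MAP kinases, cytokines and G proteins, 8 were higher with Pam2CSK4 and 0 with anti-CD86 (38.1% called). Among the 8 were the phosphatases Dusp8, Dusp1 and Dusp2 at -0.66, -0.54 and -0.51 (adjusted p = 0.00424, 0.00626 and 0.00720).

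In endocytic genes, 3 of 14 were higher with Pam2CSK4 and 1 with anti-CD86 (28.6% called, against 17.6% of all genes). Rab5c, a GTPase of early endosomes, had 3.31 and 3.01 with anti-CD86, 4.48 and 4.25 with Pam2CSK4, and 3.46 and 3.47 unstimulated, a difference of -1.20 (SE 0.06, adjusted p = 0.000527). Its relative Rab5b read -1.50 and -1.83 with anti-CD86 and -2.23 and -2.66 with Pam2CSK4, a difference of 0.78 that did not pass the test (SE 0.23, adjusted p = 0.0625). Pacsin2, a membrane-curving protein of endocytosis, differed by 0.25 (SE 0.12, adjusted p = 0.180), and another of its probes by -0.42 (adjusted p = 0.00953). The master regulator of sterol synthesis, Srebf2, was higher with anti-CD86 by 0.62 (SE 0.06, adjusted p = 0.00314; another probe -0.30, adjusted p = 0.537), while Idi1, an enzyme of that path, was higher with Pam2CSK4 (-0.43, SE 0.05, adjusted p = 0.00498; -0.19 on another probe, adjusted p = 0.738). The sterol list had 2 of 17 higher with anti-CD86 and 1 with Pam2CSK4, which is the 17.6% called over all genes. Interferon-stimulated genes numbered 2 and 3 of 25 (20.0%), near that share, with Ddx58 (RIG-I) at 0.50 and Rsad2 (viperin) at -0.61 (adjusted p = 0.00698 and 0.00351). The other probes of Ddx58 read -0.0645, 0.26 and 0.45 (adjusted p = 0.678, 0.345 and 0.811).

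The shares called in the remaining lists stand against 17.6% of all genes tested. Of 13 genes of MHC class II presentation 1 was called (H2-Oa, -0.26, adjusted p = 0.0234), of 20 of glycolysis and nutrient transport 2, and of 18 of the unfolded protein and amino acid response 3. Lists of B cell receptor signalling (3 of 16), heat shock and oxidative stress (4 of 16), quiescence (3 of 16), marginal zone and Notch (2 of 13), and inhibitory coreceptors (3 of 11) ranged from 15.4% to 27.3% called. The chemokine receptor Cxcr5, which guides B cells to follicles, was higher with Pam2CSK4 (-0.62, SE 0.06, adjusted p = 0.00245), whereas Pik3ip1, an inhibitor of PI3 kinase, was higher with anti-CD86 (0.51, SE 0.06, adjusted p = 0.00499), as was the inhibitory receptor Lair1 (0.59, SE 0.07, adjusted p = 0.00490; 0.24 on another probe, adjusted p = 0.306). The heat shock list included the metallothioneins Mt1 and Mt2 at -0.50 and -0.39 (adjusted p = 0.00555 and 0.0114). The median of 19 of the 24 lists lay below 0. So did the median of the brightest quartile of the genes tested, at -0.10, and small negative medians are to be read beside it. Of the 844 tested genes that were saturated on at least 1 of the 4 arrays 21 were called. None is used as a result for a single gene. They do stay in the counts of genes and in the counts and medians of the lists, as Ltb and Nfkbia do.

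Some genes were measured on both arrays of one signal and on neither of the other, and have only a bound. There were 106 with anti-CD86 alone above background and 12 with Pam2CSK4 alone. The bound exceeded 1-fold for 65 and 12 of them. The dimmest intensity well above background was 23.7 and 21.0 on the anti-CD86 arrays and 21.7 and 32.9 on those of Pam2CSK4, so that on slide 2 detection was easier with anti-CD86, and 2 of the 106 genes read lower with anti-CD86. The counts of each side are thus not a comparison of the signals. Serpinb2, a protease inhibitor of activated macrophages, read -2.53 and -2.93 with Pam2CSK4 and was at least 2.48-fold higher (adjusted p = 0.00121). Prima1, the membrane anchor of acetylcholinesterase, was at least 2.99-fold higher with Pam2CSK4 (adjusted p = 0.00522). For Serpinb2 and Prima1 the adjusted p uses the same arrays that picked the genes, with anti-CD86 readings not above background, so it is no separate support. Vwa5b2 was at least 8.08-fold higher, but its arrays read 0.91 and -2.97 and it did not pass the test (adjusted p = 0.0761). With anti-CD86 the 3 largest bounds, for Klhl30, Olfr1009 and Ifna2, rested on the slide 1 array, as for Klhl30 at 0.00 and -3.08, and did not pass the test either (adjusted p = 0.120, 0.123 and 0.0744).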

How the data were processed

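RNA of RB cells was labelled with Cy3 and hybridised to a custom mouse 1-colour array. The authors extracted the images with Agilent Feature Extraction 10.5.1.1 (version per the file headers), and the deposited intensity used here is the processed signal, corrected for background within the array and not normalized between arrays. Their deposited log2 table, equal to the log2 signal minus a constant per array, was an alternative.

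From each log2 signal the array's 75th percentile was subtracted, and spots sharing a probe were averaged. Control and outlier spots were left out. A probe was kept where a condition had it well above background on both of its arrays (31667), and 68 with a missing value dropped. limma 3.58.1 (R 4.3.3) was fitted over 12 arrays with condition and slide as terms, empirical Bayes moderation and Benjamini-Hochberg adjustment over all probes tested, with a threshold of 0.05. The slide was also the scan run. The fit was tested on simulated data. A gene is given by its brightest probe. Named were the 12 called genes with the largest difference each way that were well above background, unsaturated and not overlapping between signals on the 4 arrays, up to 4 called members per list, list members in the study's text, and the 3 largest bounds each way. List members beyond these rules are named for their role, and that choice, like Clcf1's, was made with their values seen. The members and lists were chosen with earlier results of these data known. Some genes are not reported here. Tables and figures used matplotlib 3.10.9 and pandas 2.3.3 under Python 3.11.15 (numpy 2.4.6).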

Additional observations from a re-analysis of the deposited data

How the results depend on the processing

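The numbers of calls depended on the fit. With anti-CD86 minus Pam2CSK4, 5961 probes became 259 without the slide term, 641 with median normalization, 758 with no filter on dim probes and 0 on the 4 arrays alone, with the slide as replicate block (8564 at an unadjusted p under 0.05) or with no replicate block (2834). With the replicate number as a block in place of the slide, a pairing that same-numbered arrays bear out only where they share a slide (r = 0.587 between the deviations of anti-CD86 and Pam2CSK4 arrays, 0.01 and -0.03 with the unstimulated arrays), 849 were called, and 3973 and 239 against unstimulated cells. Leaving out 1 array gave 1109 to 4439 probes. For anti-CD86 minus unstimulated, 8944 became 675 without the slide term, 661 with median normalization, 2352 with no filter, and 3987 to 7256 with 1 array left out. For Pam2CSK4 minus unstimulated, 3417 became 43, 318 and 130 under those 3 settings, 5634 with an intensity trend, and 147 to 2749 with 1 array left out. Of the NF-kB subunits 6 became 1, 2, 0, 0, 1 and 2 (no slide term, replicate block, 4 arrays with and without block, median normalization, no filter) and 3 to 6 with 1 array left out. The 14 NF-kB targets became 3, 5, 0, 0, 2 and 6, and 7 to 14, and the 15 cytokines 7, 9, 0, 0 and 9 (no filter kept within 1.5 times), and 9 to 13.

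Quantile normalization, normexp, the deposited table, the stricter filter, saturated probes left out and no moderation kept the first count between 5471 and 7205. The 100 called genes that the text names kept their sign under every fit that tested their brightest probe. This says little, because they were chosen by the call and most of the fits could not change a sign. Terms for slide or replicate, moderation and filters leave the difference as it is, and median normalization and the deposited table shift all differences alike. Of the 100 genes 40 stayed called without the slide term, 44 with median normalization, 59 without Pam2CSK4 replicate 2 and 0 on the 4 arrays alone. The cause was not tested. Of 37 other probes of 29 of these genes, 33 had the same sign and 21 were also called. A dimmer probe went the other way for P2rx7 (0.346), Ddx58 (-0.0645), Srebf2 (-0.295) and Rela (0.0969). Genes that were not called changed sign with little size, namely Pim2 (0.0383 median, 0.0228 quantile, -0.0570 to 0.0237 with 1 array left out, and 0.152 and 0.0808 by other probes), Apaf1 (-0.0226 normexp, -0.00819 to 0.0669 with 1 array left out, -0.0168 by another probe), Cr2 (0.105 by another probe), Cd86 (0.0283 median, -0.0824 to 0.0289 with 1 array left out), Bcl3 (-0.0366 to 0.0770) and Pim3 (-0.194 to 0.000313) with 1 array left out, Nfkb1 (0.0969) and the saturated Nfkbia (0.0904) by quantile normalization, and Adam17 (0.0538 median, 0.0292 quantile, 0.0666 normexp, 0.00424 deposited table, -0.170 to 0.168 with 1 array left out, 0.150 by another probe). Other probes gave -0.42 for Pacsin2 (adjusted p = 0.00953) and -1.66 for Hdac9 (adjusted p = 0.119).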

Other observations

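Noncoding RNA probes made up 8427 of the probes tested, and 1866 of them (22.1%) differed between anti-CD86 and Pam2CSK4, 1029 higher with anti-CD86 and 837 with Pam2CSK4. Of the other 23172 probes 17.7% differed. The share higher with anti-CD86 among called probes was 55.1% for noncoding and 56.4% for the other probes.

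Genes of the study's text that the report does not cover did not separate the signals. Adam17, a sheddase, was above unstimulated cells by 0.53 with anti-CD86 (adjusted p = 0.0230) and by 0.53 with Pam2CSK4 (adjusted p = 0.0457), and differed between the signals by -0.00 (SE 0.12, adjusted p = 0.996). Hdac9, a histone deacetylase, differed by 0.28 (SE 0.15, adjusted p = 0.227). Gapt and Gata6 were well above background on at most 1 array of either signal, and no difference is given for them.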
